A study of Mus musculus with 18 samples.

Results

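The genes described here are 33 mouse genes of the NF-κB and inflammatory response. They are NF-κB subunits and feedback genes, cytokines and chemokines, adhesion molecules, receptors, the STAT3 and C/EBP factors, and effectors, most of them secreted. They were taken by symbol from a given list, so that no measured value enters the rule, and all 33 were found among the 43629 gene IDs of the deposited count table. Of the 33 genes, 29 had enough counts to enter the tests, which covered 15671 genes. Ccl7, Il6, Steap4 and Ch25h did not.

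RNA was sequenced from mouse cortical neuronal cultures that received lentivirus after 7 days in vitro and were collected 10 days after that. The Psmb5 cultures overexpressed the constitutive β5 subunit of the proteasome. The Psmb8 cultures overexpressed β5i, the subunit that takes its place in the immunoproteasome. The mSc cultures overexpressed the fluorescent protein mScarlet as the control, and each group had 6 libraries, numbered 1 to 6. The treatment tags and the design text give these 3 transgenes, whereas a protocol text shared by all samples names an Ifng construct. Ifng had 11 counts over all 18 libraries and at most 3 in any of them. The labels name no strain, age or promoter for the transgenes, and do not say whether libraries came from separate cultures or animals. All p-values here rest on library-to-library spread, which could be technical.

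NF-κB factors are held in the cytoplasm by inhibitors such as IκBα, encoded by Nfkbia. Signals from TNF, IL-1 or Toll-like receptors lead to ubiquitination of the inhibitor and its destruction by the proteasome, and the freed dimers then switch on chemokines, adhesion molecules and their own inhibitors. In brain tissue, astrocytes and microglia are the best known sources of this response, and cytokines that signal through gp130, such as LIF and oncostatin M, add STAT3 and C/EBP targets to it.

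Library totals were 16055974 to 19640543 counts in Psmb5 cultures, 16091906 to 18630396 in Psmb8 cultures and 15337511 to 21074229 in mSc cultures. Levels are given as CPM, the usual count scaled to library size, where 1 CPM stands for about 15 to 22 counts. Psmb5 RNA averaged 451 ± 113 CPM in Psmb5 cultures and 42.9 ± 1.49 CPM in mSc cultures (SD, n = 6 each). Psmb8 RNA averaged 887 ± 198 CPM in Psmb8 cultures and 6.28 ± 7.76 CPM in mSc cultures (SD, n = 6 each), so both transgenes were found where the labels place them. Neuron markers summed to 3846 to 5159 CPM over the 18 libraries, and all 10 were above the count filter. Astrocyte markers were present too, with all 12 in the tests. Of 14 microglia markers only Aif1 and Cd68 were in the tests, and the microglial gene Tmem119 had 1 count in all, Tyrobp 7, C1qa 20 and Cx3cr1 25. Of 8 endothelial markers 1 was in the tests, and Cldn5 had 0 counts in every library. In bulk RNA, fewer cells of a type and less RNA per cell cannot be told apart, and this holds for every level below.

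Libraries with the same number stood together. The 3 number 1 libraries summed to 5114 CPM of astrocyte markers in the Psmb5 culture, 5429 in the Psmb8 culture and 6130 in the mSc culture, against 1693 to 2297 CPM in the 15 others. Interferon-stimulated genes summed to 1411 CPM in Psmb5, 1116 in Psmb8 and 1624 in mSc libraries of number 6, and to 513 to 770 CPM in those of number 3, against 147 to 220 CPM in the 12 others. Since same-numbered libraries are alike in these respects, each comparison of groups is given without and with the number as a block.

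**Figure D1:**
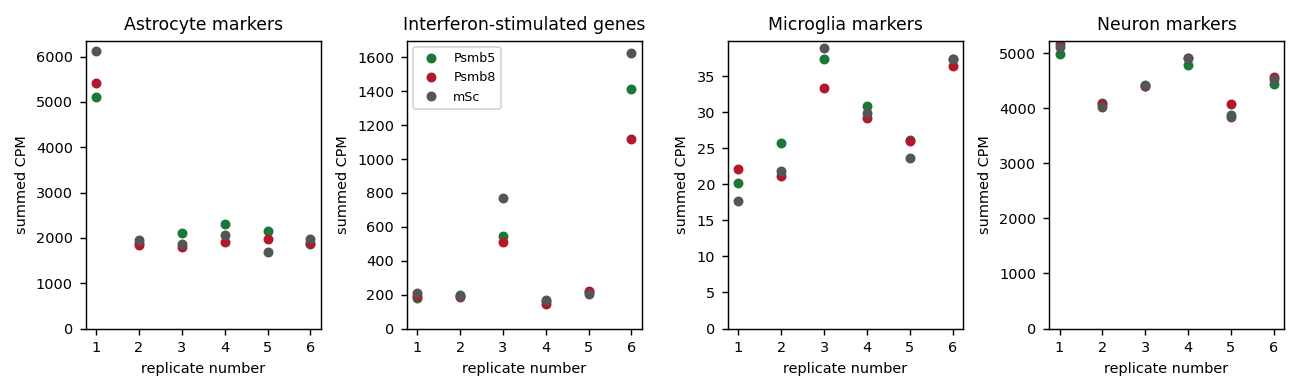
Summed CPM of marker genes (vertical axes) by replicate number (horizontal axes), with 1 point per library, green for Psmb5, red for Psmb8 and grey for mSc. Number 1 stands above all others in astrocyte markers, and numbers 3 and 6 in interferon-stimulated genes. Neuron markers lie between 3846 and 5159 CPM and are also highest at number 1 (4991 to 5159 CPM, at most 4916 CPM elsewhere). Microglia markers lie between 17.7 and 38.9 CPM.

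Promoter sequences were searched for a fixed spelling of an NF-κB, a STAT and a C/EBP motif near the start of these genes. The RefSeq windows of build GRCm38.p6, 250 bases before to 50 after each start, covered 26 of the 33 genes with 31 windows. GGGANNNTCC, a κB motif, was searched on both strands and stood in 5 of the 31 windows, which belong to Cxcl1, Il6, Nfkb2 and Nfkbia, and in 4.59% of all 32851 windows. TTCCNGGAA, a STAT motif, stood in 2 of the 31, in Icam1 and Steap4, and in 1.15% of all windows. TTGCNNAAT, a C/EBP motif, stood in 5 of the 31, in C3, Il1r1, Il6, Ptx3 and Steap4, and in 2.396% of all windows. A match describes letters and does not show that a factor binds there. Other spellings of these motifs were not searched, so a window without a match may still hold a site. The 250 bases before the start are printed for 4 genes that differ between replicate numbers in the tests that follow, each read 5′ to 3′ on the gene's own strand. Capitals mark κB matches in the first 3 sequences and the STAT match in Icam1. Nfkbia lies on the minus strand and the other 3 on the plus strand.
Nfkbia, chr12:55492648-55492897, minus strand: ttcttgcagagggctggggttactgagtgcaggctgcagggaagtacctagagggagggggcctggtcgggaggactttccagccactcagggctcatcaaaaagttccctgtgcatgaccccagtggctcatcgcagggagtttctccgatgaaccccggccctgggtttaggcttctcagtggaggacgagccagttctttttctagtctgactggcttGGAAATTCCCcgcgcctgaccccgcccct
Cxcl1, chr5:90890995-90891244, plus strand: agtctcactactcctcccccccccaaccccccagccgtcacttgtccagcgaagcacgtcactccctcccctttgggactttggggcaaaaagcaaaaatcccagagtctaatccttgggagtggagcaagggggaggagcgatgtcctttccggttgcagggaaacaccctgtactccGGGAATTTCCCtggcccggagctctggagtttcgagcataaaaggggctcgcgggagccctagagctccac
Nfkb2, chr19:46305445-46305694, plus strand: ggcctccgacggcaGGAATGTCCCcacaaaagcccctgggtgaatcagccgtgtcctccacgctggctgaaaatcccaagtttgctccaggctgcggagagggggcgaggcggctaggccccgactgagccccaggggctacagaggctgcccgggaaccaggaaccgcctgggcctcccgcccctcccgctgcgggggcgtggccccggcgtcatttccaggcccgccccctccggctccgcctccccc
Icam1, chr9:21015690-21015939, plus strand: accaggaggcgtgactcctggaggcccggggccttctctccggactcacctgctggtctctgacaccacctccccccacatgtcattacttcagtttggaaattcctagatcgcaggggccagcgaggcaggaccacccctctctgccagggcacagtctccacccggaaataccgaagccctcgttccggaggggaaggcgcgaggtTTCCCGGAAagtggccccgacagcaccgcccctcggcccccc
The Nfkbia match begins 29 bases before the start and reads as the motif on the opposite strand. In Cxcl1 a match on the plus strand begins 71 bases before the start and overlaps 1 on the minus strand that begins 70 bases before it. The Nfkb2 window holds a minus-strand match that begins 236 bases before the start, and a plus-strand match, GGGACTTTCC, 10 bases after it, outside the printed stretch. In Icam1 the STAT match begins 42 bases before the start.

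Levels of different genes are compared here per length, as mean CPM per kilobase of exon over all 18 libraries. The length joins the exons of all annotated transcripts of a gene, which can exceed the length of the RNA present. Serpina3n, a secreted protease inhibitor of reactive astrocytes, was the highest at 38.1 CPM per kilobase, followed by the C/EBP factor Cebpb at 27.2 and the TNF receptor Tnfrsf1a at 17.2. Nfkbia at 15.5, Stat3 at 15.2 and the NF-κB subunit Rela at 14.0 came next. The other 3 NF-κB subunits were lower, Relb at 3.85, Nfkb2 at 2.38 and Nfkb1 at 2.22 CPM per kilobase. Among the ligands, the neutrophil chemokine Cxcl1 was at 2.99 CPM per kilobase, Ccl5 at 2.39, the monocyte chemokine Ccl2 at 2.15 and Lif at 1.32. Il6 was the lowest of all genes listed, at 0.023 CPM per kilobase, with 18 counts spread over 11 libraries. Neighbours such as Nfkbia and Stat3, or Relb and Lifr (3.86), did not differ beyond the spread over libraries, since the libraries of 1 gene span the mean of the other.

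**Figure D2:**
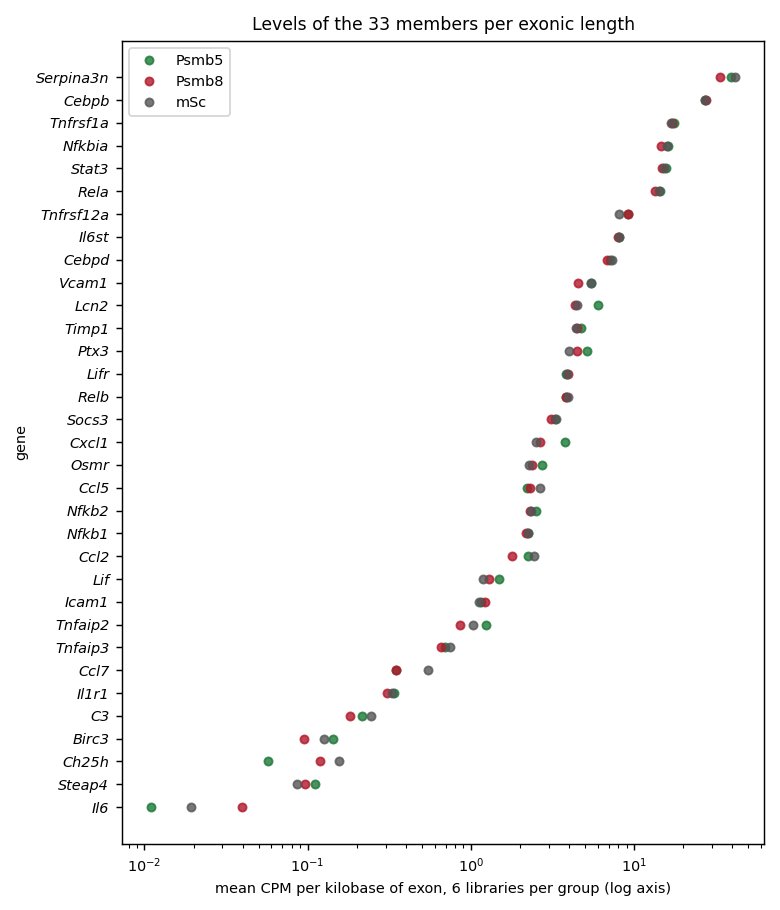
Mean level of each of the 33 genes in CPM per kilobase of exon (log axis), ordered from high to low, with points for the Psmb5, Psmb8 and mSc means of 6 libraries each. The points of the 3 groups lie close together for most genes, while the genes themselves run from 38.1 for Serpina3n to 0.023 CPM per kilobase for Il6.

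Most of these genes differed between replicate numbers. Of the 29 genes tested, 25 differed between numbers (edgeR's quasi-likelihood F test of the number, with group in the model, Benjamini-Hochberg adjusted p under 0.05), which is 86.2% of them, beside 64.3% of all genes tested. The median range between the highest and the lowest number, on the log2 CPM scale, was 1.08 for the 29 genes and 0.42 for all genes tested. In 20 of the 29 genes, or 69.0%, the mean log2 CPM was lowest in number 1, where 20.3% of all tested genes had theirs. The highest mean log2 CPM fell in number 4 for 13 genes (44.8%, beside 20.6% of all) and in number 6 for 8 (27.6%, beside 15.4% of all). Without the number 1 libraries, 23 of the 29 genes still differed between numbers, as did 8787 of all 15723 genes then tested. The astrocyte markers, which are high in number 1, go the opposite way to these 20 genes. The microglia markers summed to 17.7 to 22.2 CPM in number 1 and to 21.1 to 38.9 CPM in the others, most of it from the lysosomal gene Cd68, which lay between 14.7 and 36.5 CPM. Reactive astrocyte genes summed to 445 to 528 CPM in number 1, which held the lowest library of each group, and to 519 to 1387 CPM in the other numbers. Some of them, such as Gbp2 and Iigp1, are also among the interferon-stimulated genes. Mural cell and fibroblast markers were high in number 1, at 39.8 to 53.6 CPM against 12.99 to 30.8 CPM in the others. Only 4 of these 10 markers were in the tests, with Dcn at a mean of 13.7 CPM and Pdgfrb at 7.67 CPM the highest. Acta2 had 5 counts in all and Kcnj8 had 1, so the sum does not show that these cells were present. The part of any of these lists in the result was not tested.

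**Figure D3:**
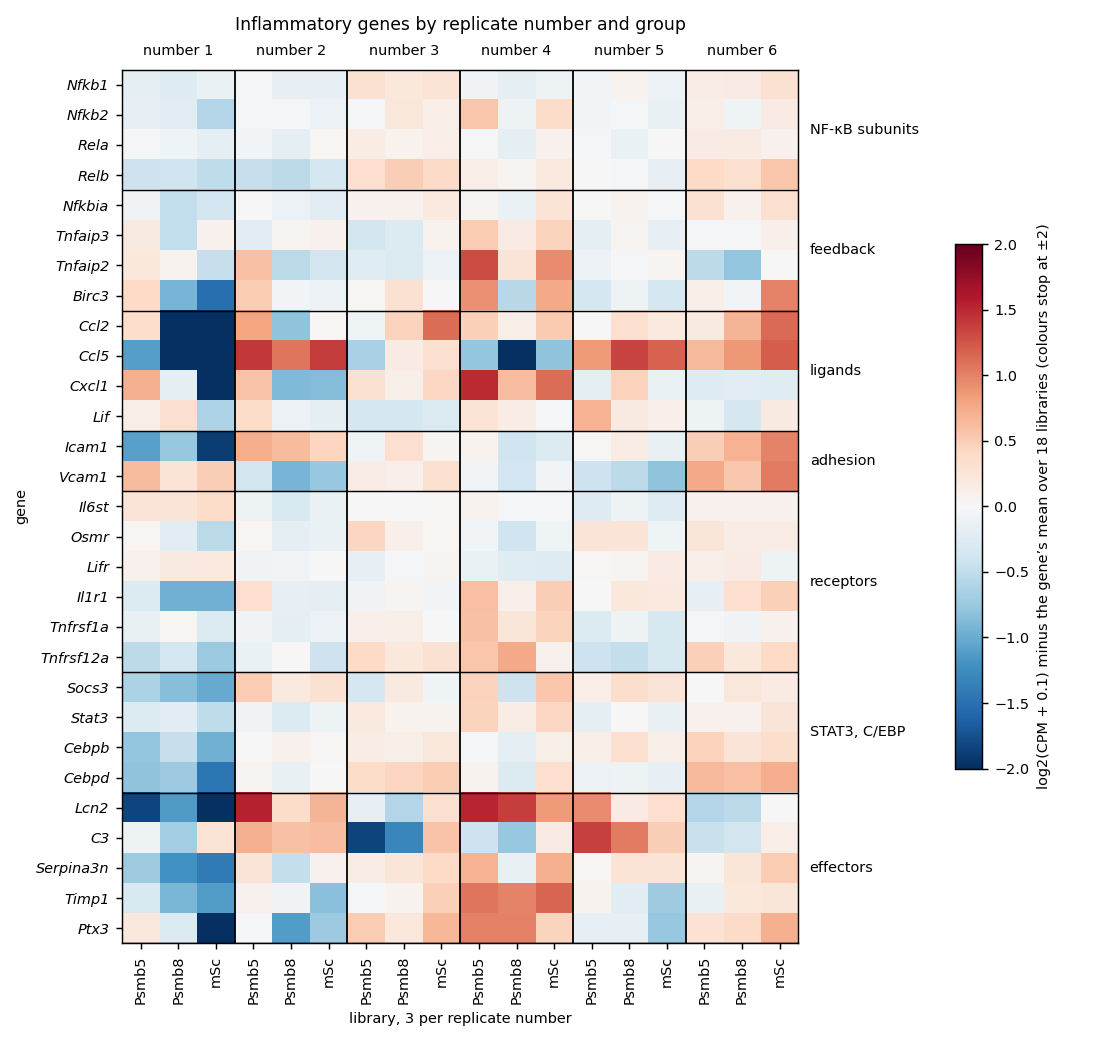
Log2(CPM + 0.1) of each of the 29 tested genes minus its own mean over the 18 libraries. Genes are in rows by role and libraries in columns by replicate number and, within a number, Psmb5, Psmb8 and mSc. Colours stop at ±2. The 3 number 1 columns are blue for most genes.

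Among the NF-κB subunits, the log2 range between numbers was 0.24 for Rela, 0.46 for Nfkb1, 0.60 for Nfkb2 and 0.87 for Relb. The median over all tested genes was 0.42, so only Rela ranged less than that. Rela, the transactivating p65 subunit, ranged 1.18-fold between the means of the numbers and Nfkb1, which encodes p105 and p50, ranged 1.37-fold. Nfkb2, which encodes p100 and p52, ranged 1.52-fold and was lowest in number 1 in all 3 groups, at 9.59 CPM in Psmb5, 9.16 in Psmb8 and 7.11 in mSc. Relb, the partner of p52, ranged 1.83-fold. It had 18.3 CPM in Psmb5, 20.4 in Psmb8 and 18.9 in mSc at number 3, and 19.2, 18.2 and 21.4 CPM in the same order at number 6. At the 4 other numbers it lay between 10.1 and 16.6 CPM, so the interferon-high numbers held the 6 highest Relb values. The same held for Nfkb1, with 29.5 CPM or more at numbers 3 and 6 and 27.8 CPM or less elsewhere. It did not hold for Rela, with 45.1 CPM in Psmb8 at number 3 and 45.6 in mSc at number 4. Nor did it hold for Nfkb2, which had its highest value, 15.8 CPM, in Psmb5 at number 4. The adjusted p of the number was 4.0e-08 for Relb, 2.8e-05 for Nfkb1, 0.0084 for Rela and 0.012 for Nfkb2 (edgeR). Whether the interferon-stimulated genes have a part in this was not tested.

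The feedback genes followed the number in part. Nfkbia was lowest in number 1 in all 3 groups of Psmb5, Psmb8 and mSc libraries, at 23.5, 17.4 and 18.8 CPM, and ranged 1.47-fold (adjusted p = 0.0012, edgeR). Tnfaip2, a TNF-induced gene, had its highest value of each group at number 4, with 12.1 CPM in Psmb5, 5.82 in Psmb8 and 9.39 in mSc. Its adjusted p was 8.4e-04 with edgeR and 0.536 without the number 4 libraries, so the call rests on them. Tnfaip3, the deubiquitinase A20 that ends NF-κB signalling, and Birc3, a ubiquitin ligase, did not pass for the number, with adjusted p of 0.059 and 0.25 (edgeR). Birc3 was near the limit of the counting, at 0.129 to 1.20 CPM.

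Among the chemokines, the level depended on the number most in Ccl5. This gene, which attracts T cells, had 0.705 CPM in Psmb5, 0.303 in Psmb8 and 0.129 in mSc at number 1, and 0.907, 0.288 and 0.886 CPM at number 4. At number 2 it had 4.49 CPM in Psmb5, 3.52 in Psmb8 and 4.43 in mSc, and at number 5 it had 2.998, 4.30 and 3.82 CPM. All 6 libraries of numbers 1 and 4 lay below the 12 others, a 9.74-fold range of number means (adjusted p = 2.5e-07, edgeR). Cxcl1 was highest in each group at number 4, with 13.7 CPM in Psmb5, 7.38 in Psmb8 and 10.5 in mSc, and its adjusted p for the number was 0.011 with edgeR. That call was lost with DESeq2 (adjusted p = 0.114) and without the number 4 libraries (0.559, edgeR). Ccl2 ranged 5.06-fold but did not pass (adjusted p = 0.093, edgeR). Its number 1 libraries lay far apart, with 2.60 CPM in Psmb5, 0.243 in Psmb8 and 0.194 in mSc. Ccl2 passed with limma-voom (adjusted p = 0.030), in the edgeR test with no count filter (3.6e-10), and without the Psmb5 libraries (3.3e-05). In the unfiltered test 31 of the 33 genes passed, some of those below the count filter among them. Why the p of Ccl2 was so different there was not tested. Lif, a gp130 cytokine, did not pass (0.079, edgeR), and Ccl7, another monocyte chemokine, had 30 counts in Psmb5, 29 in Psmb8 and 50 in mSc libraries.

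The adhesion molecules, which bind leukocyte integrins, moved in different ways. Icam1 was lowest at number 1, with 2.11 CPM in Psmb5, 2.67 in Psmb8 and 1.16 in mSc, and was at or above 3.46 CPM in the 15 other libraries (adjusted p = 2.0e-06, edgeR). Vcam1 was instead high at number 1, with 66.0 CPM in Psmb5, 51.0 in Psmb8 and 59.4 in mSc. Its highest mean was at number 6, with 71.4, 61.8 and 87.4 CPM in the same order of groups, and its lowest mean at number 2, with 32.7, 22.1 and 25.1 CPM. Its adjusted p for the number, 1.7e-09 with edgeR, was the smallest among the 29 genes.

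Receptors varied less. The gp130 subunit Il6st and the LIF receptor Lifr were the only 2 tested members of the set with their highest mean in number 1, where Il6st had 106 CPM in Psmb5, 107 in Psmb8 and 115 in mSc, against 72.4 to 94.4 CPM in the other libraries. Tnfrsf1a was highest at number 4 in each group, with 65.9 CPM in Psmb5, 52.0 in Psmb8 and 59.7 in mSc. Osmr, the oncostatin M receptor chain, Il1r1, the IL-1 receptor, and Tnfrsf12a, the receptor of TWEAK, ranged 1.35-fold, 2.18-fold and 2.01-fold between numbers. All 6 receptors passed for the number, with adjusted p of 0.013 or less (edgeR).

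The 4 genes of the STAT3 and C/EBP arm all passed for the number. Cebpd had 14.3 CPM in Psmb5, 15.1 in Psmb8 and 9.05 in mSc at number 1, against 20.7 to 41.3 CPM in the other 15 libraries. Number 6 was the highest in each group (adjusted p of the number = 7.4e-08, edgeR). Like Relb and Nfkb1, Cebpd was highest at the interferon-high numbers 3 and 6, with 32.3 CPM or more there and 31.4 CPM or less elsewhere. Cebpb, its relative in acute-phase gene control, was likewise lowest at number 1, with 23.4, 29.0 and 20.5 CPM, against 35.2 to 54.7 CPM elsewhere. Stat3 was highest at number 4, with 195 CPM in Psmb5, 158 in Psmb8 and 190 in mSc. Socs3, the feedback inhibitor that Stat3 induces, was lowest at number 1, with 5.75, 4.92 and 4.39 CPM. Socs3 passed with an adjusted p of 4.6e-04, Cebpb with 3.0e-07 and Stat3 with 5.6e-06 (edgeR).

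Lcn2, among the effectors, had the widest range of the set. This gene, a siderophore-binding protein secreted by reactive astrocytes, had 2.71 CPM in Psmb5, 4.49 in Psmb8 and 0.905 in mSc at number 1. At number 4 it had 28.6 CPM in Psmb5, 26.0 in Psmb8 and 18.1 in mSc, and the range of number means was 10.1-fold (adjusted p = 1.1e-06, edgeR). Every number 1 value lay below every other value of the gene. Serpina3n had 45.0 CPM in Psmb5, 31.7 in Psmb8 and 27.5 in mSc at number 1, against 53.0 to 120 CPM elsewhere, and its adjusted p of 9.3e-06 became 0.137 without number 1 (edgeR). Timp1, an inhibitor of matrix metalloproteinases, was highest at number 4, with 7.71, 7.32 and 8.27 CPM, and at or below 5.07 CPM in the other 15 libraries (adjusted p = 1.4e-05, edgeR). Ptx3, a pentraxin of innate immunity, ranged 2.97-fold (5.1e-04, edgeR), with 21.8 CPM in Psmb5, 21.6 in Psmb8 and 14.6 in mSc at number 4. C3, the central complement component, ranged 3.46-fold and passed with an adjusted p of 0.0062, which became 0.194 without the Psmb5 libraries and 0.143 without the Psmb8 libraries (edgeR). Steap4, a metalloreductase, had 0 counts in each number 1 library and 3 to 12 counts in each of the 15 others. A count of 0 allows up to 3 counts, or 0.163 CPM in the Psmb5, 0.182 in the Psmb8 and 0.194 in the mSc library, counting error only. Ch25h, which makes 25-hydroxycholesterol, had 49 counts in 13 libraries.

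**Figure D4:**
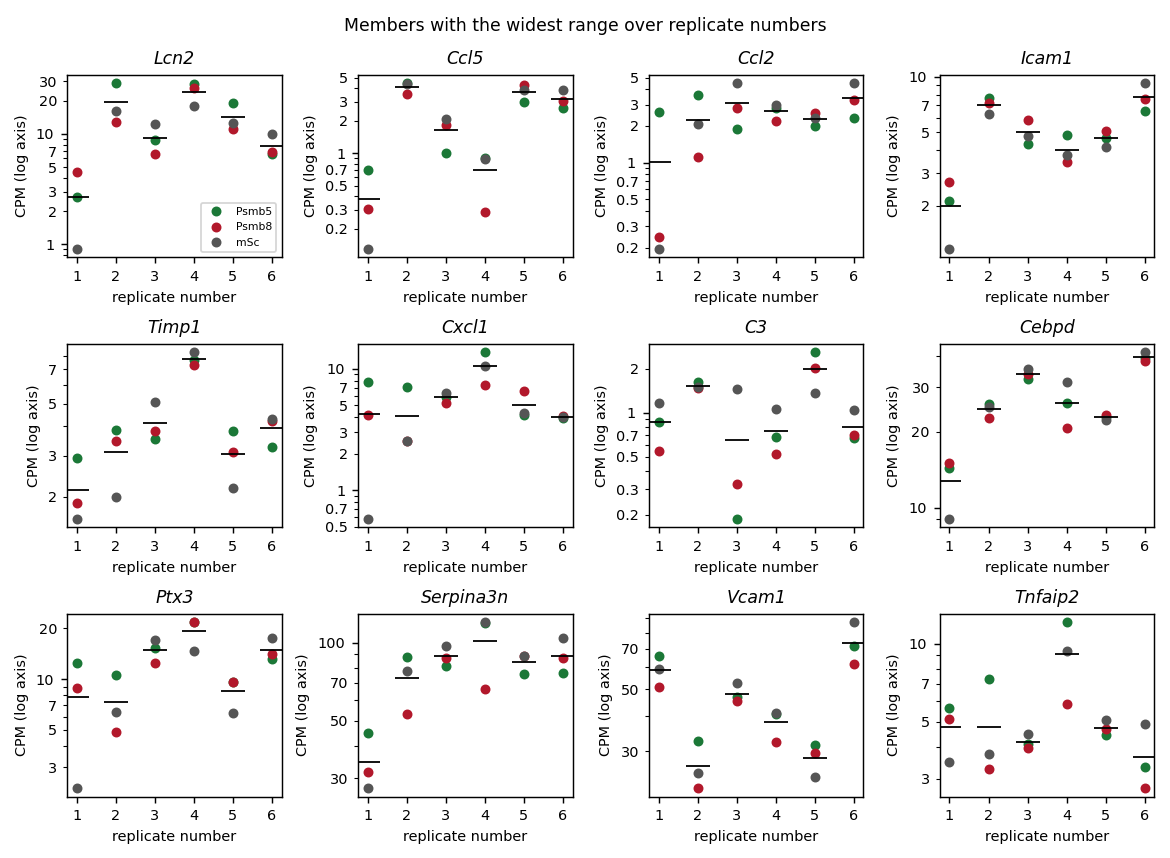
CPM (log axis) of the 12 genes at 1 CPM or more with the widest range over replicate numbers (horizontal axis). There is 1 point per library, green for Psmb5, red for Psmb8 and grey for mSc, and a bar at the mean CPM of the number. Ccl5 is low at numbers 1 and 4 in all 3 groups, and Lcn2, Icam1, Timp1, Cebpd and Serpina3n are lowest at number 1 in each group.

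The number 1 mSc library was the extreme of the set. It was the lowest of all 18 libraries for 18 of the 29 genes, or 62.1%, while 8.28% of all tested genes had their lowest value there. Within number 1, 25 of the 29 genes were higher in the Psmb5 than in the mSc library and 22 were higher in the Psmb8 than in the mSc library. The median log2 difference was 0.43 for Psmb5 and 0.28 for Psmb8 in that pair. In other pairs it went either way, from -0.17 (number 6) to 0.18 (number 2) for Psmb5 and from -0.29 (number 4) to 0.14 (number 5) for Psmb8. Both differences share the mSc library.

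More constitutive β5 came with no called change in these genes. In Psmb5 against mSc cultures, 0 of the 29 genes passed edgeR's quasi-likelihood test without the number, where 0.00638% of all tested genes passed, and 0 passed with the number as a block, where again 0.00638% did. At an unadjusted p under 0.05 there was 1 gene without the block and 4 with it, against 0.944% of all genes without it and 6.87% with it. DESeq2 and limma-voom called 0 with and without the block. Of the 29 blocked estimates 21 were above 0 (72.4%), as were 51.0% of those of all genes. The median log2 fold change of the 29 genes was 0.016 without the block and 0.035 with it, beside 0.0018 over all genes with it. The blocked median was -0.0035 without number 1 and 0.12 without the interferon-high numbers 3 and 6, so its direction rests on number 1. No gene had groups that did not overlap, and 0.0319% of all tested genes had. Blocked 95% intervals stayed within a 1.5-fold change for 21 of the 29 genes, so larger changes than that were possible for the other 8.

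Osmr had the smallest p. It had 28.3, 32.4 and 39.4 CPM as the lowest, median and highest of the Psmb5 libraries, against 20.1, 27.7 and 32.5 CPM in mSc libraries. The groups overlapped, but Osmr was higher in Psmb5 in 6 of 6 same-numbered pairs. All 6 pairs lay on 1 side for 4.24% of all tested genes. Its blocked log2 fold change was 0.27 (SE 0.07, interval 0.12 to 0.41), with an unadjusted p of 0.00097 and an adjusted p of 0.441 (edgeR).

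Cxcl1 had 3.95, 6.52 and 13.7 CPM as the lowest, median and highest of the Psmb5 libraries, against 0.582, 4.16 and 10.5 CPM in mSc libraries. It was higher in Psmb5 in 3 of 6 pairs, and its log2 fold change of 0.65 (SE 0.27, adjusted p = 0.665, edgeR with the block) became 0.34 without number 1 and 0.99 without numbers 3 and 6. Ptx3 had a median of 12.8 CPM in Psmb5 (9.61 to 21.8) and of 10.5 CPM in mSc (2.26 to 17.6), and its blocked value of 0.45 became 0.22 without number 1 and 0.94 without numbers 3 and 6. Lif had 4.40 to 9.15 CPM in Psmb5 and 3.62 to 6.39 CPM in mSc, a log2 fold change of 0.31 (interval 0.02 to 0.59) that was 0.54 without numbers 3 and 6. Tnfrsf12a had 11.3 to 24.1 CPM in Psmb5 and 9.69 to 21.6 CPM in mSc, a log2 fold change of 0.17 (interval -0.02 to 0.36) that was 0.10 without number 4. The low values of Cxcl1 and Ptx3 in mSc both come from the number 1 library.

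More of the immunoproteasome subunit β5i likewise came with no called change. In Psmb8 against mSc cultures, 0 of the 29 genes passed edgeR's test without the block, beside 0.00638% of all tested genes, and 0 passed with the block, beside 0.325%. At an unadjusted p under 0.05 there were 0 genes without the block and 2 with it, against 2.17% of all genes without it and 10.7% with it. DESeq2 and limma-voom called 0 with and without the block. Of the 29 blocked estimates 19 were below 0 (65.5%), as were 49.6% of those of all genes. The median log2 fold change of the 29 genes was -0.045 without the block and -0.037 with it, beside 0.00081 over all genes with it. The blocked median ran from -0.093 without number 1 to -0.013 without number 4, and it was -0.022 without number 6. No gene had groups that did not overlap, and 0.121% of all tested genes had. Blocked intervals stayed within a 1.5-fold change for 22 of the 29 genes.

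Vcam1 had the smallest p here. It had 22.1, 38.9 and 61.8 CPM as the lowest, median and highest of the Psmb8 libraries, against 24.2, 47.0 and 87.4 CPM in mSc libraries. The groups overlapped almost wholly, and Vcam1 was higher in the Psmb8 library in 1 of 6 pairs. Its blocked log2 fold change was -0.22 (SE 0.08, interval -0.38 to -0.05, adjusted p = 0.292, edgeR), and it was -0.12 without the interferon-high numbers 3 and 6. Serpina3n had a median of 76.7 CPM in Psmb8 (31.7 to 89.2) and of 93.1 CPM in mSc (27.5 to 120), a log2 fold change of -0.28 (interval -0.54 to -0.02, adjusted p = 0.412, edgeR with the block), and of -0.17 without number 4. Rela had 37.7 to 48.2 CPM in Psmb8 and 38.1 to 47.0 CPM in mSc, a log2 fold change of -0.09 (interval -0.18 to 0.01), and of -0.05 without number 4. Tnfrsf12a had 11.6 to 27.7 CPM in Psmb8 and 9.69 to 21.6 CPM in mSc, a log2 fold change of 0.17 (interval -0.02 to 0.36) that was 0.048 without number 4 and 0.34 without numbers 3 and 6. In the fit without the block, the Vcam1 value of -0.26 became -0.0042 without the number 6 mSc library, and the Tnfrsf12a value of 0.18 became 0.0041 without the number 4 Psmb8 library. C3 had 0.324, 0.626 and 2.03 CPM as the lowest, median and highest in Psmb8, against 1.04, 1.26 and 1.497 CPM in mSc. Its log2 fold change of -0.53 had an interval of -1.16 to 0.10, and it became -0.27 without number 3, -0.87 without number 5 and -0.21 without numbers 3 and 6.

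The subunits were also compared with each other. In Psmb8 against Psmb5 cultures, 0 of the 29 genes passed edgeR's test without the block, beside 0.0128% of all tested genes, and 0 passed with the block, beside 0.0383%. At an unadjusted p under 0.05 there were 0 genes without the block and 4 with it, against 1.33% of all genes without it and 7.64% with it. DESeq2 and limma-voom called 0 of the 29 genes with and without the block. The blocked median of the 29 genes was -0.11 (-0.054 without number 4, -0.17 without number 3, -0.20 without numbers 3 and 6), beside -7.4e-05 over all genes, and 24 of the 29 estimates were below 0, as were 50.1% of all genes. The medians by number ran from -0.33 at number 4, where 28 of the 29 genes were lower in Psmb8, to 0.08 at number 5, where 20 were higher. Over the 6 pairs they averaged -0.09 ± 0.16 (SD), a difference smaller than the spread between pairs. No gene had groups that did not overlap, and 0.0893% of all tested genes had.

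Vcam1 had 22.1, 38.9 and 61.8 CPM as the lowest, median and highest of the Psmb8 libraries, against 31.6, 43.9 and 71.4 CPM in Psmb5 libraries. It was lower in Psmb8 in 6 of 6 pairs, and all 6 pairs lay on 1 side for 4.53% of all tested genes. Its log2 fold change was -0.27 (SE 0.08, interval -0.43 to -0.11, adjusted p = 0.323, edgeR with the block). Osmr had 22.2, 28.6 and 35.2 CPM in Psmb8 against 28.3, 32.4 and 39.4 CPM in Psmb5, a log2 fold change of -0.20 (interval -0.35 to -0.06, adjusted p = 0.433, edgeR with the block). Lcn2 had a median of 8.98 CPM in Psmb8 (4.49 to 26.0) and of 14.1 CPM in Psmb5 (2.71 to 29.1), and its log2 fold change was -0.44 (interval -0.86 to -0.01), or -0.22 without number 2. Tnfaip2 had 2.76 to 5.82 CPM in Psmb8 and 3.34 to 12.1 CPM in Psmb5, a log2 fold change of -0.48 (interval -0.84 to -0.12). For Nfkbia the libraries ran from 17.4 to 26.2 CPM in Psmb8 and from 23.5 to 30.4 CPM in Psmb5, a log2 fold change of -0.14 (interval -0.29 to 0.00087) that was -0.088 without number 1. All 5 genes had overlapping groups, and none passed the adjustment (adjusted p of 0.486 for Tnfaip2, 0.644 for Lcn2 and 0.654 for Nfkbia, edgeR with the block).

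**Figure D5:**
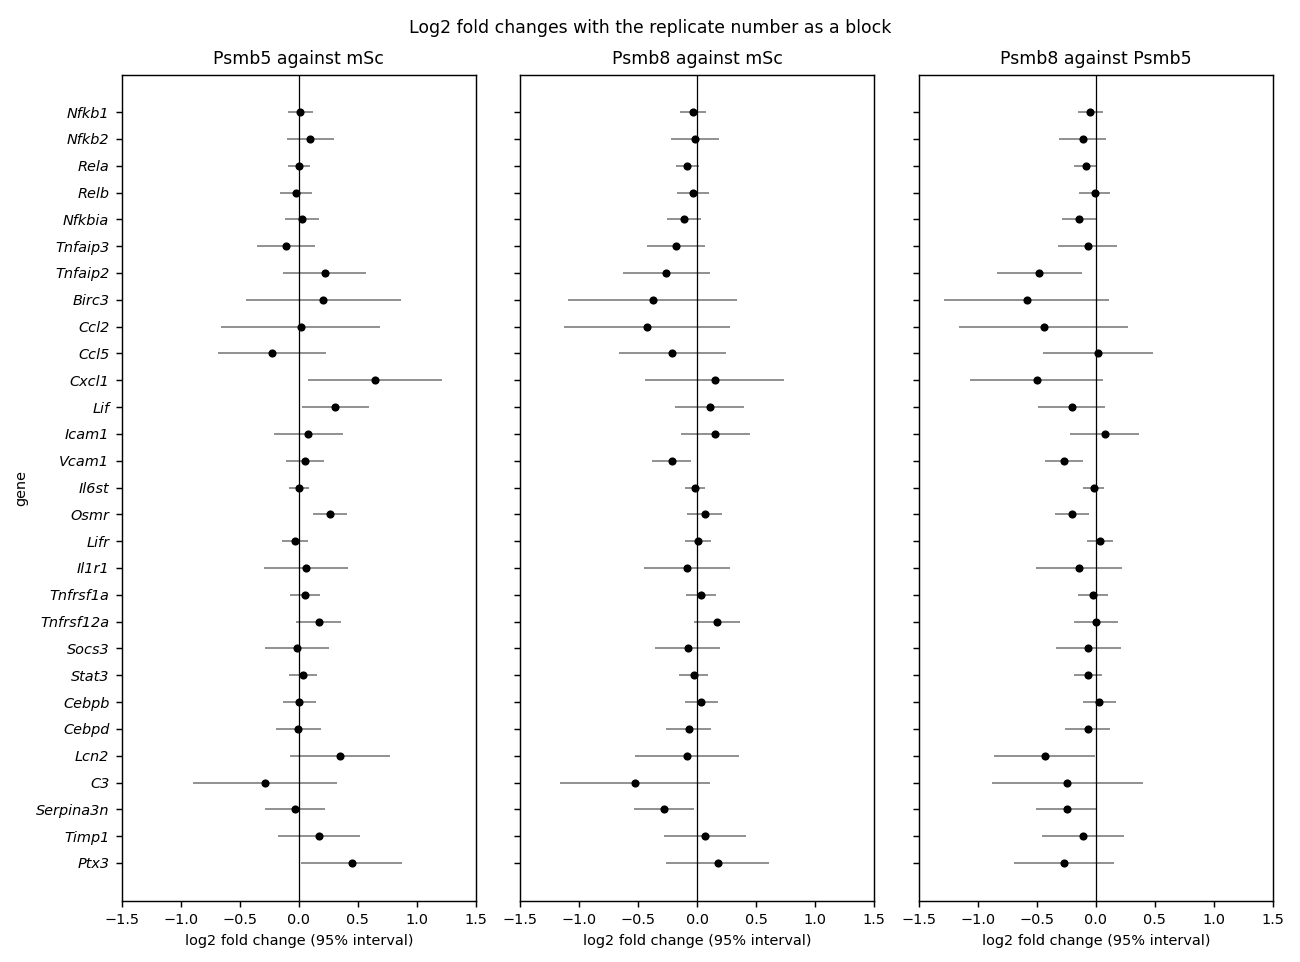
Log2 fold changes of the 29 tested genes (horizontal axes) with 95% intervals from the edgeR fit with the replicate number as a block, for Psmb5 against mSc, Psmb8 against mSc and Psmb8 against Psmb5, genes in the order of their roles. The longest lines belong to low genes such as Birc3, C3 and Ccl2, while those of Rela, Il6st and Lifr stay close to 0.

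Other genes of the same pathways were taken from lists. Of 42 further genes of NF-κB signalling, such as kinases, adaptors and deubiquitinases, 40 were tested and 0 passed in any of the 3 comparisons with or without the block (edgeR). At an unadjusted p under 0.05 there were 2, 2 and 3 with the block and 0 without it, for Psmb5 against mSc, Psmb8 against mSc and Psmb8 against Psmb5. Over all genes the shares with the block were 6.87%, 10.7% and 7.64% in the same order. Their blocked medians were 0.00089 for Psmb5 against mSc, -0.04 for Psmb8 against mSc and -0.02 for Psmb8 against Psmb5. Between replicate numbers 26 of the 40 differed, which is 65.0%, beside 64.3% of all genes. Bcl3, an IκB family coactivator, averaged 0.920 ± 0.234 CPM in Psmb8 and 1.78 ± 1.43 CPM in Psmb5 libraries (SD, n = 6 each), a blocked log2 difference of -0.83 with an adjusted p of 0.528 (edgeR). Tnip2, an A20-binding inhibitor, averaged 29.1 ± 6.96 CPM in Psmb8 and 32.5 ± 6.97 CPM in mSc libraries (SD, n = 6 each; adjusted p = 0.239, edgeR with the block).

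Ligands and receptors of the TNF, IL-1 and Toll-like receptor families had few genes above the count filter, 13 of 26, and 0 of these passed in any comparison (edgeR, either fit; 1, 0 and 1 at an unadjusted p under 0.05 with the block, in the same order of comparisons), while 12 of 13 differed between numbers. Over all tested genes, 6.87%, 10.7% and 7.64% had an unadjusted p under 0.05 with the block in these comparisons (edgeR). Between numbers 64.3% of all tested genes differed, and these shares stand beside every list here. Of 24 genes of gp130 and JAK-STAT signalling, 22 were tested, 0 passed in any comparison (1, 2 and 3 unadjusted) and 19 differed between numbers (edgeR). Bcl6, a transcriptional repressor, was lower in Psmb8 than in mSc in 6 of 6 pairs, with 31.4 ± 2.998 CPM in Psmb8 and 36.3 ± 2.50 CPM in mSc (SD, n = 6 each; adjusted p = 0.123, edgeR with the block). Of 23 chemokines and chemokine receptors beyond the set, 11 were tested, 0 passed (1, 5 and 3 unadjusted) and 9 differed between numbers (edgeR). Ackr3, a scavenging receptor of CXCL12, was higher in Psmb8 than in mSc in 6 of 6 pairs, with 8.43 ± 1.57 CPM in Psmb8 and 6.95 ± 1.34 CPM in mSc (SD, n = 6 each; adjusted p = 0.135, edgeR with the block). Of 27 reactive astrocyte genes, 23 were tested and 22 differed between numbers, and 1 passed between groups, the interferon-induced GTPase Gbp2. This list shares Gbp2, Iigp1 and Cxcl10 with the interferon-stimulated genes, so the 2 lists are not separate results. At an unadjusted p under 0.05 there were 6 of 23 for Psmb5 against mSc, 5 for Psmb8 against mSc and 6 for Psmb8 against Psmb5 with the block, and 0 without it, with blocked medians of 0.083, -0.13 and -0.17. Gbp2 averaged 21.5 ± 36.7 CPM in Psmb8 and 41.3 ± 71.5 CPM in mSc (SD, n = 6 each), with a log2 fold change of -0.86 and an adjusted p of 0.0060 with the block and 0.9999 without it (edgeR).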

How the data were processed

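Poly(A)-enriched RNA of mouse cortical neuronal cultures was sequenced, per the labels' protocols. What the authors deposited is 1 table of unnormalised counts by Ensembl gene ID for 18 libraries. STAR 2.4, DESeq2 and the builds GRCm39 and mm10 are named in the submitters' processing notes with no role. For the counter, its strand setting and the annotation the entry is "not given in the sources used here", so reads shared with close copies or overlapping genes may be split in unknown ways. Symbols came from a table of Ensembl IDs (42462 matched), and exon lengths from GENCODE's GRCm38 annotation.

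Counts were filtered with filterByExpr by group (15671 genes), scaled with TMM and tested with edgeR 4.0.16 in R 4.3.3, with all 18 libraries in 1 fit of the group, the quasi-likelihood test and Benjamini-Hochberg adjustment over all genes at 0.05. The replicate number was tested jointly in a fit of group and number. Alternatives were DESeq2 1.42.0 and limma-voom (limma 3.58.1), other size factors and filters, left-out libraries and the number as a block. Same-numbered libraries deviated together from their group means, with correlations of 0.45 to 0.73 over 18 pairs and a mean of -0.12 over 90 other pairs, so the numbers were taken to pair the samples. What a number marks is not stated by the labels. The block lowered the biological coefficient of variation to 5.94%, against 17.9% with group alone. No library looked deposited more than once: the chi-square per degree of freedom was 2.91 to 37.8 over 45 pairs within groups.

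The genes and lists were chosen with earlier results of these data known. Named with values are the 5 genes with the smallest blocked p in each comparison. So are the 12 at 1 CPM or more with the widest range over numbers. Of the other lists, the gene that passed is named, with only some of those at the 2 smallest blocked p of a comparison. The other genes of the set are named in the order of their roles, chosen after their values were seen. Log2 CPM used a prior count of 2. Fold ranges between numbers, and the number with the highest or lowest mean, come from means of log2 CPM and can differ from those of mean CPM. Standard errors were derived from the F statistic, and intervals cover 95%. The fits were checked on simulated counts. A marker gene is not reported here and was left out of its list.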

Additional observations from a re-analysis of the deposited data

Results flagged for a closer look

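Within each group of 6 libraries, 87 sets of values (29 genes in 3 groups) were searched for a library whose gap to its nearest neighbour took more of the log2 range than Dixon's critical share for 6 values. Chance gives about 1 in 20, and 7 were found. The number 1 mSc library accounted for 4 of them: Serpina3n with 27.5 CPM (next value 77.5), Cebpb with 20.5 CPM (next 40.5), Lcn2 with 0.905 CPM (next 9.98) and Ccl2 with 0.194 CPM (next 2.06). Nfkbia was low in the number 1 Psmb8 library at 17.4 CPM (next 22.5). Timp1 was high in the number 4 Psmb5 library at 7.71 CPM (next 3.86), and Tnfaip2 in the number 4 mSc library at 9.39 CPM (next 5.05). So 5 of the 7 carry the number 1, where astrocyte markers are high, and the part of these markers was not tested.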

How the results depend on the processing

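In all settings run, 0 of the 29 genes passed in any comparison of groups. Counts over all genes moved. With the replicate block, 51 genes passed for Psmb8 against mSc and 6 for Psmb8 against Psmb5. With DESeq2 2 and 4 passed in these comparisons, with the block and DESeq2 138 and 26 (and 13 for Psmb5 against mSc), and with the block and limma-voom 62 and 7. Leaving out each number under the block gave 1 to 3 genes for Psmb5 against mSc, 9 to 59 for Psmb8 against mSc (57, 19, 9, 59, 41 and 19 for numbers 1 to 6) and 4 to 20 for Psmb8 against Psmb5 (20 without number 4). Leaving out numbers 3 and 6 gave 2, 2 and 4. Leaving out single libraries gave 1 to 2 genes for Psmb8 against mSc, 2 without Psmb8 replicate 5. The median of the 29 genes without single libraries ran from -0.04 to 0.09 for Psmb5 against mSc, from -0.14 to 0.01 for Psmb8 against mSc (above 0 without Psmb8 replicate 1 alone) and from -0.16 to -0.06 for Psmb8 against Psmb5. Between numbers, 22 to 26 of the 29 genes passed without any 1 number, beside 8787 to 9793 of the 15654 to 15727 genes tested. With DESeq2 24 passed, beside 9246 of all 15671 genes, and with limma-voom 26, beside 9955. Above a mean of 5 CPM 21 of 23 passed, beside 8505 of all 11548. Unfiltered, 31 of 33 passed, beside 10450 of all 29585. The cause of these shifts was not tested. Depth limits Birc3, C3 and the 4 genes outside the tests.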
